A study of Homo sapiens with 2 samples.

Results

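The genes examined are 9 genes for very large proteins that link parts of the cytoskeleton to each other, to the plasma membrane or to the nucleus: DST, MACF1, PLEC, SYNE1, SYNE2, UTRN, SPTAN1, SPTBN1 and AHNAK. Their peaks are all regions listed under these names in the authors' table of regions enriched after YTHDF3 immunoprecipitation. These genes had 64 of the 18466 listed peaks, and all 9 had at least 1. The genes were picked with their peaks known, so peak numbers, fold enrichments and p-values are given as a description and were not tested.

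RNA recovered with an antibody against YTHDF3 (RNA immunoprecipitation, RIP) gave 1 library, and RNA of the same cells before that step (input) gave the other. Both came from untreated KYSE30 cells, an established line of esophageal squamous cell carcinoma, grown with 10% serum. Each peak carries the authors' fold enrichment of RIP over input, a p and an adjusted p, which compare the reads of these libraries only. Neither library was replicated, so no difference between peaks or genes could be set against a spread, and read depth is unknown. The libraries used here include neither a control antibody nor cells without YTHDF3. Of 9 squamous epithelial markers, 8 had a peak, each with an adjusted p under 0.05 for at least 1 peak; of 7 markers of other cell types, 4 had a peak and 1 (SYT1) had an adjusted p under 0.05. Over protein-coding genes these shares were 40.0% with a peak and 34.0% with an adjusted p under 0.05. Fold enrichment went the other way: among markers with a peak, the median best value was 5.23 for squamous and 8.765 for other cell types. A listed peak is not a level of expression.

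YTHDF3 is a cytoplasmic protein that binds messenger RNA carrying N6-methyladenosine and is known for effects on translation and decay. Plakins such as DST, MACF1 and PLEC bind actin, microtubules or intermediate filaments and tie them to junctions. Nesprins (SYNE1, SYNE2) sit in the outer nuclear membrane, where they bind SUN proteins and connect the nucleus to the cytoskeleton. Spectrins (SPTAN1, SPTBN1) form the mesh under the plasma membrane, utrophin (UTRN) is a relative of dystrophin that joins actin to a membrane complex, and AHNAK is a scaffold found at the plasma membrane. In squamous epithelium, the epithelial product of DST and plectin, the product of PLEC, anchor keratin filaments at hemidesmosomes, which hold basal cells to their matrix.

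Most of these genes have several start sites of transcription, and the peaks of DST and MACF1 lay differently around theirs. All 16 DST peaks lay downstream of the third of 3 annotated starts. The peaks of MACF1, a plakin of similar genomic length, lay on both sides of starts 2 and 3. The 250 bases before each of these 6 starts are shown for that reason, 5′ to 3′ on the strand of the gene, from RefSeq (GRCh38.p14). Capitals mark matches on either strand to 4 motifs of core promoters and of the AP-1 factors: first TATAAA, then TGANTCA for AP-1, then CCAAT, and last GGGCGG. Matches to GGGCGG may overlap each other.
DST start 1, chr6:56954831-56955080, minus strand: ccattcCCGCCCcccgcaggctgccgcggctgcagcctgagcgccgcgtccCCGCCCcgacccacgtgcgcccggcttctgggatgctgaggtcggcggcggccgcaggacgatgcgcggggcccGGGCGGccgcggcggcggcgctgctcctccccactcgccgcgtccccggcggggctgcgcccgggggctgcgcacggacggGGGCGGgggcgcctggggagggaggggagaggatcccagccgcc
DST start 2, chr6:56851906-56852155, minus strand: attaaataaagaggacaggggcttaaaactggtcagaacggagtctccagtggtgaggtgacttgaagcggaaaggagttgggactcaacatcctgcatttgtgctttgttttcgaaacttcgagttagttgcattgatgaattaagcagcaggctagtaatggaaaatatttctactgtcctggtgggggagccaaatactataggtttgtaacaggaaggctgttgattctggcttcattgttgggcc
DST start 3, chr6:56642890-56643139, minus strand: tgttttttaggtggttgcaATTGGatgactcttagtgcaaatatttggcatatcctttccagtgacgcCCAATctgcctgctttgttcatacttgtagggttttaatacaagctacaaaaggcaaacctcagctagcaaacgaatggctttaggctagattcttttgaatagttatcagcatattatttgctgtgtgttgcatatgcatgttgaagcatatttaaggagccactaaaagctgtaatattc
MACF1 start 1, chr1:39083917-39084166, plus strand: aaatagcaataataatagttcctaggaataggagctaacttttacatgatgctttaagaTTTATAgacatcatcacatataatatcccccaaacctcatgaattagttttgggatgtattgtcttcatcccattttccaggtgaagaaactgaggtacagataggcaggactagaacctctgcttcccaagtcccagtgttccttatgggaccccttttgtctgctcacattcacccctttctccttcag
MACF1 start 2, chr1:39204445-39204694, plus strand: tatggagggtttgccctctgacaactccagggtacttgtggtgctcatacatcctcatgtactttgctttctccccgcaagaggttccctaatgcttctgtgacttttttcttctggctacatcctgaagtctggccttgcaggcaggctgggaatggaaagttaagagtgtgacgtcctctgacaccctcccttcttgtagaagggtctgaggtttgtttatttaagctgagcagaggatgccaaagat
MACF1 start 3, chr1:39408823-39409072, plus strand: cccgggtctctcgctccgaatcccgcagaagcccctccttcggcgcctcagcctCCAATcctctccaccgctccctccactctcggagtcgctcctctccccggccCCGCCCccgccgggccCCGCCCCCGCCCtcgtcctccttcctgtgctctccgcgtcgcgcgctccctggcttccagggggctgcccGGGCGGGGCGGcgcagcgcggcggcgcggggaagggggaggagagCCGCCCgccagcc

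The window before the third DST start held 2 matches to CCAAT and none to the other motifs, with a G and C content of 37.6%. The first DST window held 4 matches to GGGCGG and 82.8% G and C, and the second held no match and 44.0% G and C. The third MACF1 window resembled the first DST window in base composition, with 78.0% G and C, 6 matches to GGGCGG and 1 to CCAAT. The first MACF1 window held 1 match to TATAAA, and the second none to any motif. Over all 35116 such windows, GGGCGG was present in 42.6%, CCAAT in 32.0%, TATAAA in 10.7% and TGANTCA in 6.57%, and the median G and C content was 58.0%. A match is a description of these letters and not a measured binding site.

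Of the 19974 protein-coding genes of chromosomes 1 to 22 and X, 40.0% had a listed peak; since the linker genes were chosen from the table, nothing is read from their 9 of 9. An adjusted p under 0.05 was reached by at least 1 peak in 8 of the 9 genes, against 34.0% of protein-coding genes, and the exception was SYNE1. A peak of at least the list's median fold enrichment, 5.02, was likewise present in 8 of the 9, against 28.7% of protein-coding genes, and the exception was SPTAN1. A peak among the 10% with the smallest p was present in 4 of the 9 (DST, PLEC, SPTBN1 and AHNAK), against 7.98%. These shares include genes without a peak, whereas the linker genes were chosen with their peaks known. Of the 7994 protein-coding genes with a peak, 6792 had an adjusted p under 0.05. A peak of 5.02 or more was present in 5733 of them, and 1 among the 10% with the smallest p in 1594. Nothing is therefore read from the 8, 8 and 4 of 9 either. Of the 64 peaks, 49 (76.6%) had an adjusted p under 0.05, against 74.4% of all peaks, a share near that of the list. Peaks of 5.02 or more numbered 18 of 64 (28.1%), against 53.4% of all peaks. By gene these were 4 of 16 in DST, 3 of 13 in MACF1, 2 of 15 in SYNE2 and 1 of 8 in UTRN. In PLEC, SYNE1, SPTBN1, AHNAK and SPTAN1 they were 4 of 4, 2 of 2, 1 of 3, 1 of 2 and 0 of 1. The median fold enrichment was 3.26 over the linker gene peaks (quartiles 2.24 and 5.02) and 5.02 over all other peaks (quartiles 2.76 and 8.78). PLEC, SYNE1, SPTBN1, AHNAK and SPTAN1 had 12 of the 64 peaks, so the pooled share and median mostly describe the other 4 genes. The highest value among linker gene peaks was 11.3, in MACF1 and PLEC, and the lowest was 1.17, in DST.

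**Figure D1:**
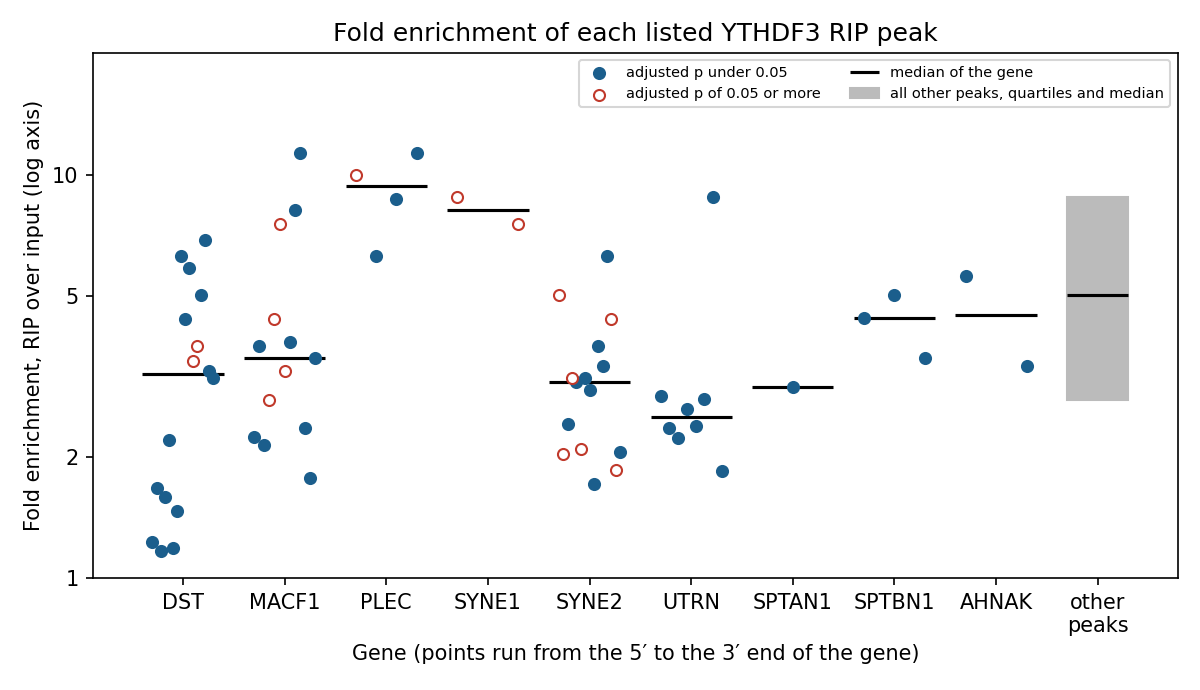
Fold enrichment of RIP over input (log axis) of each of the 64 listed peaks by gene, with points from left to right in the order of transcription, filled where the adjusted p was under 0.05; black bars are medians and the grey box gives the quartiles of all other peaks. DST, MACF1, SYNE2 and UTRN had medians between 2.51 and 3.51, below the 5.02 of the other peaks, whereas all 4 PLEC peaks lay above it.

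DST codes for dystonin, a plakin whose epithelial form joins keratin to the hemidesmosome and whose longer forms serve neurons and muscle. It lies on chromosome 6 from 56457996 to 56954830 (minus strand, 496835 bases) and had 16 peaks, more than any other gene of the list. The first annotated start is at 56954830, the second at 56851905 and the third at 56642889. The 16 peaks ran from 56640441 down to 56458947, and the first began 2448 bases downstream of the third start. No DST peak was listed in the 311941 bases between the first and the third start.

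Along DST in the order of transcription, peaks 1 to 7 had fold enrichments of 1.23, 1.67, 1.17, 1.59, 2.20, 1.19 and 1.47. Peaks 8 to 16 had fold enrichments of 6.27, 4.39, 5.86, 3.45, 3.76, 5.02, 6.90, 3.26 and 3.14. The values of the 7 peaks nearest the third start therefore did not overlap those of the 9 peaks beyond them, with a boundary between 56615093 and 56614943 that was placed after the values were seen. The medians were 1.47 and 4.39. Fold enrichments of 2.20 or less were listed for 2987 peaks, or 16.2% of the whole list.

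The smallest p-values of DST lay among the peaks of low fold enrichment. Peak 5 (56616563 to 56624387) had a fold enrichment of 2.20 with a p of 1.0e-120, and peak 2 (56634868 to 56639966) had 1.67 with a p of 2.0e-58. In all, 536 peaks (2.90% of the list) had a p as small as that of peak 5. Peak 14 (56541174 to 56592334), with the largest fold enrichment of the gene at 6.90, had a p of 2.0e-35. Peaks 11 and 12, of 361 and 421 bases, had adjusted p-values of 0.068 and 0.091, and the other 14 peaks of DST were under 0.05.

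**Figure D2:**
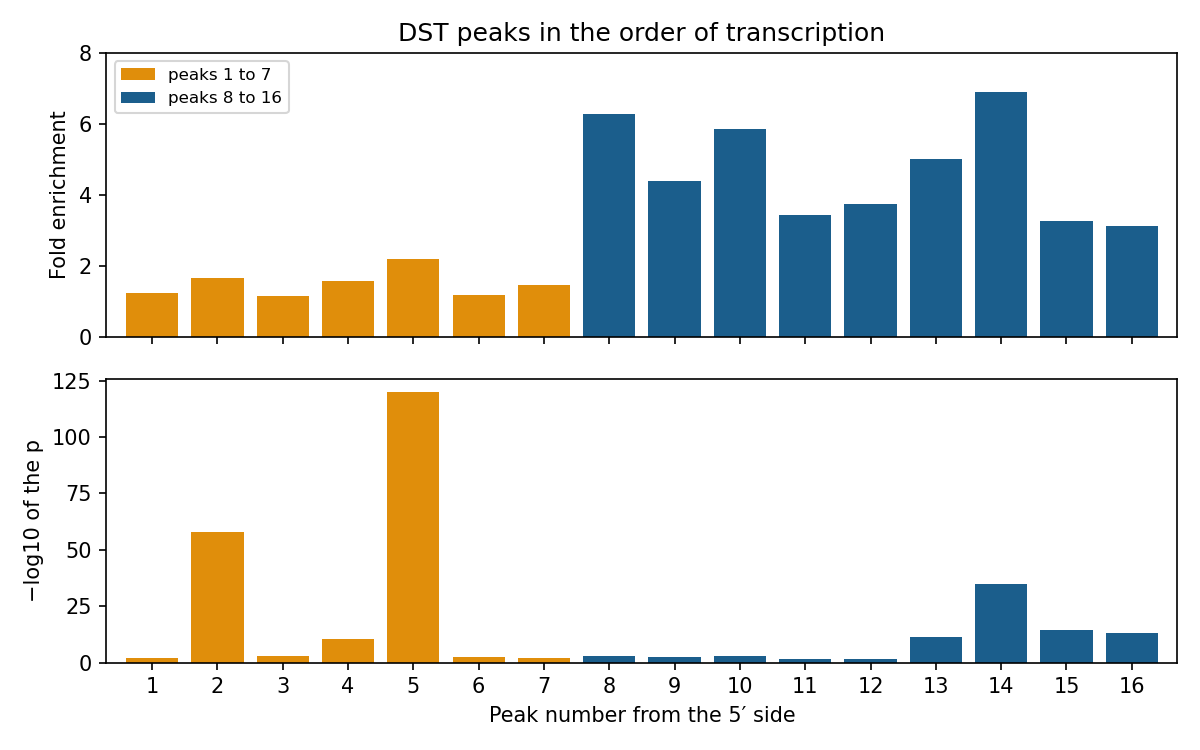
Fold enrichment (upper panel) and −log10 of the deposited p (lower panel) of the 16 DST peaks, numbered from the 5′ side and coloured by the side of the boundary. Peaks 1 to 7 stayed at 2.20 or below and included the smallest p, of peak 5, while peaks 8 to 16 ranged from 3.14 to 6.90.

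MACF1 codes for a plakin that crosslinks actin and microtubules. It lies on chromosome 1 from 39084167 to 39487138 (plus strand, 402972 bases) and had 13 peaks. In the order of transcription their fold enrichments were 2.24, 3.76, 2.14, 2.76, 4.39, 7.53, 3.26, 3.84, 8.16, 11.3, 2.35, 1.77 and 3.51. The values were higher toward peak 6 and again toward peak 10, each time with a lower value in the next peak, and did not fall into 1 low and 1 high stretch as in DST. The first of these rises rests on peaks 4, 5 and 6, with adjusted p-values of 0.063, 0.335 and 0.249. The first peak (39103692 to 39204294) lay upstream of the second annotated start at 39204695. Of the others, 7 lay between the second and the third start at 39409073, 1 spanned the third start, and 4 lay downstream of it.

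The largest fold enrichment of MACF1, 11.3, belonged to peak 10, a region of 1110 bases from 39414005 to 39415114 with an adjusted p of 0.0023. Peak 9 (39379387 to 39413495), which spans the third start, had a fold enrichment of 8.16 with an adjusted p of 6.3e-15. Peaks 4 to 7 were short, at 451, 151, 451 and 240 bases, and had adjusted p-values between 0.0501 and 0.335. The smallest p of the gene, 6.3e-18, was that of peak 11, with a fold enrichment of 2.35. As in DST, the peak with the smallest p was not the one with the largest fold enrichment.

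PLEC codes for plectin, which binds intermediate filaments and joins them to hemidesmosomes and other structures. It is the shortest of the 9 genes (chromosome 8 from 143915153 to 143976745, 61593 bases, minus strand in the authors' table). In the order of transcription its 4 peaks had fold enrichments of 10.0, 6.27, 8.69 and 11.3, and together they covered 97.5% of the gene. All 4 were above the median of the list. The adjusted p-values were 0.078, 6.3e-47, 6.3e-83 and 0.041, so the largest fold enrichments went with the weakest p-values. The pairs of fold enrichment and p of peaks 1 and 4 were common, listed for 364 and 220 peaks of the list. The last peak, of 810 bases from 143915147 to 143915956, lay at the 3′ end of the gene.

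The nesprin genes differed in number of peaks at similar length. SYNE2 (chromosome 14 from 63761596 to 64226449, 464854 bases) had 15 peaks, the second highest number of any gene, and SYNE1 (chromosome 6 from 152121687 to 152637362, 515676 bases) had 2. In the order of transcription, the SYNE2 fold enrichments were 5.02, 2.03, 2.41, 3.14, 3.07, 2.09, 3.14, 2.93, 1.71, 3.76, 3.35, 6.27, 4.39, 1.85 and 2.05. Of these peaks 13 lay below the median of the list, and 9 had an adjusted p under 0.05. The first began at 63942093, 89089 bases downstream of the first annotated start at 63853004, and the last, from 64218416 to 64220437, was the only one beyond the starts at 64214144 and 64215954. The smallest p in SYNE2 was 4.3e-06, in peak 3 with a fold enrichment of 2.41.

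The SYNE1 peaks had fold enrichments of 8.78 (152231471 to 152284015) and 7.53 (152135215 to 152206308), both above all values of SYNE2. Their adjusted p-values were 0.0501 and 0.254. A fold enrichment of 7.53 with a p of 0.033 was the commonest pair of values in the list, shared by 747 peaks, among them SYNE1 peak 2 and MACF1 peak 6. Both SYNE1 values were whole multiples of 1.2545, as were 50.3% of all fold enrichments within the rounding of the list, against 16 of the 64 linker gene peaks (25.0%). The value 1.2545 was picked from this list, as the step that made the share over all peaks largest among those tried. Both peaks lay in the part of SYNE1 nearest the 3′ end, and the second spanned the annotated starts at 152185411 and 152168312.

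UTRN, on chromosome 6 from 144285335 to 144853034, was the longest of the genes at 567700 bases and had 8 peaks, all with an adjusted p of 0.031 or less. In the order of transcription the fold enrichments were 2.82, 2.35, 2.22, 2.62, 2.39, 2.78, 8.78 and 1.84. Peak 7 stood apart from the other 7, which ranged from 1.84 to 2.82. Its region, from 144550978 to 144774343, was the widest of all linker gene peaks at 223366 bases and spanned the second annotated start at 144583148. The smallest p of the gene was 8.5e-08, in peak 5 with a fold enrichment of 2.39.

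The spectrin genes had few peaks, which spanned between 6875 and 161852 bases. SPTAN1, for the alpha chain of the nonerythroid spectrin, had 1 peak from 128574774 to 128633015 on chromosome 9, with a fold enrichment of 2.98 and a p of 3.2e-37. This was the lowest best fold enrichment of the 9 genes. SPTBN1, for a beta chain, had 3 peaks on chromosome 2 with fold enrichments of 4.42, 5.02 and 3.51, which together covered 96.2% of the gene. Peak 1 began at 54456285, which is 42 bases upstream of the first annotated start at 54456327. Peak 2 (54622338 to 54660650) had a p of 1.0e-151, the smallest of all linker gene peaks, and 404 peaks of the list (2.19%) had a p as small. Peak 3 (54662266 to 54669140) was the only linker gene peak whose region overlapped a peak of another name, AC093110.3 on the opposite strand. The other 63 regions were shared with no other name, as were 81.8% of all peaks in the list.

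AHNAK had 2 peaks on chromosome 11, where the RefSeq gene runs from 62433544 to 62546806 on the minus strand. The first, from 62517254 to 62556235, had a fold enrichment of 5.62 and a p of 2.5e-77, and it reached 9429 bases past the 5′ end of the RefSeq gene. The second, of 900 bases from 62516205 to 62517104, followed after a gap of 149 bases with a fold enrichment of 3.35 and a p of 2.6e-06. Their midpoints lay 8.88% and 26.6% of the way along the RefSeq gene from its 5′ end, and no peak was listed in the remainder. Where shorter AHNAK transcripts end was not examined, so these positions hold for the whole RefSeq gene and not for a given transcript.

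**Figure D3:**
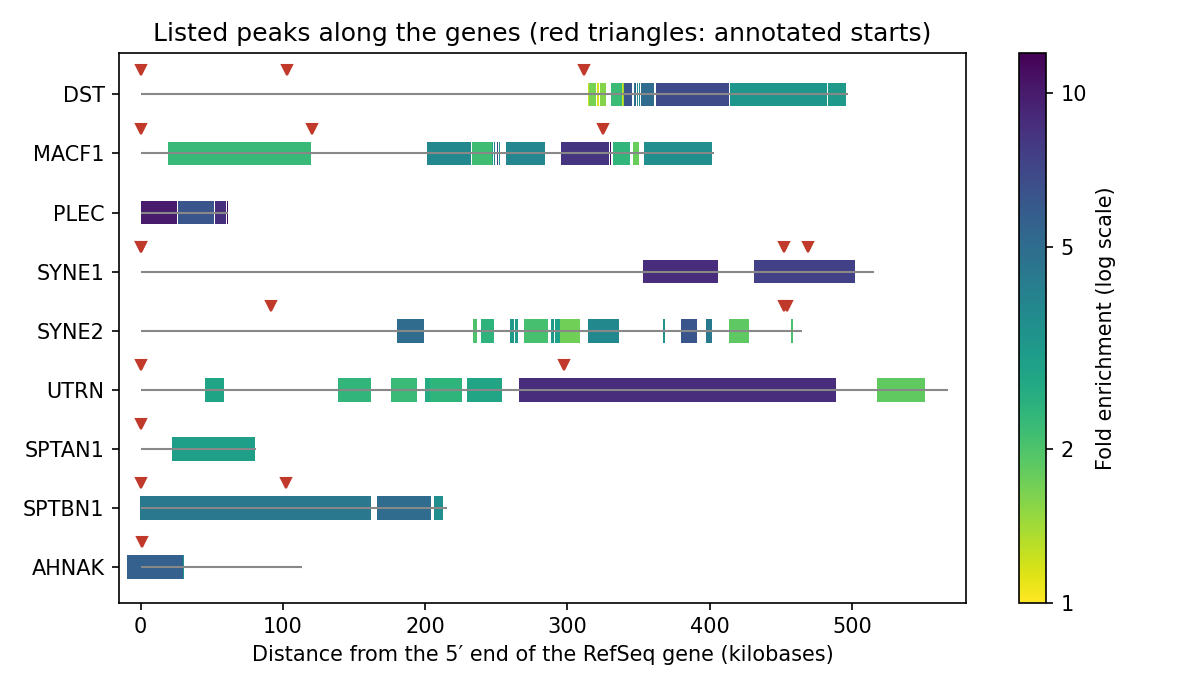
The 64 peaks drawn along the 9 genes as distance from the 5′ end of the RefSeq gene in kilobases, coloured by fold enrichment on a log scale, with red triangles at the annotated starts (none drawn for PLEC); a region includes introns. All DST peaks lie to the right of the third start, and the widest region is UTRN peak 7 at 223366 bases.

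Peaks of the same gene often followed each other closely. Of 55 gaps between neighbouring peaks, 24 were at most 1000 bases and 4 were exactly 59 bases. The median gap was 329 bases in DST, 1446 in MACF1, 5625 in SYNE2 and 11649 in UTRN. Neighbouring regions were not joined here, and a number of peaks is not a number of binding sites. The median span of a linker gene peak was 9254 bases, against 3312.5 for all other peaks, and 21 of the 64 spanned at least 20000 bases.

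Position along the gene was not used to choose the genes, although their peaks were known when they were picked. Short peaks, of at most 1000 bases, were rarely near the 3′ end of the RefSeq gene in the linker genes. Of 12 such peaks, 1 (8.33%, exact 95% interval 0.21 to 38.5) had its midpoint in the 10% of the gene nearest the 3′ end, against 2500 of 4105 (60.9%, 59.4 to 62.4) over the whole list in genes longer than 10000 bases. The exception was PLEC peak 4. Ends of shorter transcripts were not used, so a peak at such an end would not count here. None of the 12 lay in the 10% nearest the 5′ end, against 12.9% over the list. Of the 12, 6 lay in DST, 4 in MACF1 and 1 each in PLEC and AHNAK. DST and MACF1 had 16 and 13 peaks, whereas 4559 of the 9268 genes with a peak had 1. No share over genes with many peaks was taken. Peaks of 1 gene share their source, so the interval covers counting error only and the difference was not tested.

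Over peaks of any span, 31 of 64 linker gene peaks (48.4%) had their midpoint in the last of 3 equal parts of the gene, 26 (40.6%) in the middle part and 7 (10.9%) in the part nearest the 5′ end. Over the whole list the shares were 52.9%, 28.8% and 18.2% of 14948 peaks. All DST peaks lay between 63.3% and 98.5% of the way from the 5′ to the 3′ end, and those of SYNE2 between 40.9% and 98.5%. UTRN peaks were spread from 9.20% to 94.2%.

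Length alone did not order the genes by number of peaks. DST, SYNE2 and MACF1 had 16, 15 and 13 peaks, or 3.22, 3.23 and 3.23 per 100000 bases of gene. UTRN, the longest, had 1.41 per 100000 bases, SYNE1 had 0.388 and PLEC had 6.49. Over the 9 genes, Spearman's rho between number of peaks and gene length was 0.43, against 0.30 over the 7994 protein-coding genes with a peak; the points of each share both libraries, and no test was made. Of the 5258 protein-coding genes at least as long as PLEC, 50.1% had a peak and 0.761% had 8 or more, as did 0.518% of all genes with a peak. Of protein-coding genes of at least 400000 bases, 35.3% of 482 had a peak and 1.24% had 8 or more. Of the 6 genes behind the last share, 4 were DST, MACF1, SYNE2 and UTRN. These 4 genes and SYNE1 are the linker genes of that length.

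**Figure D4:**
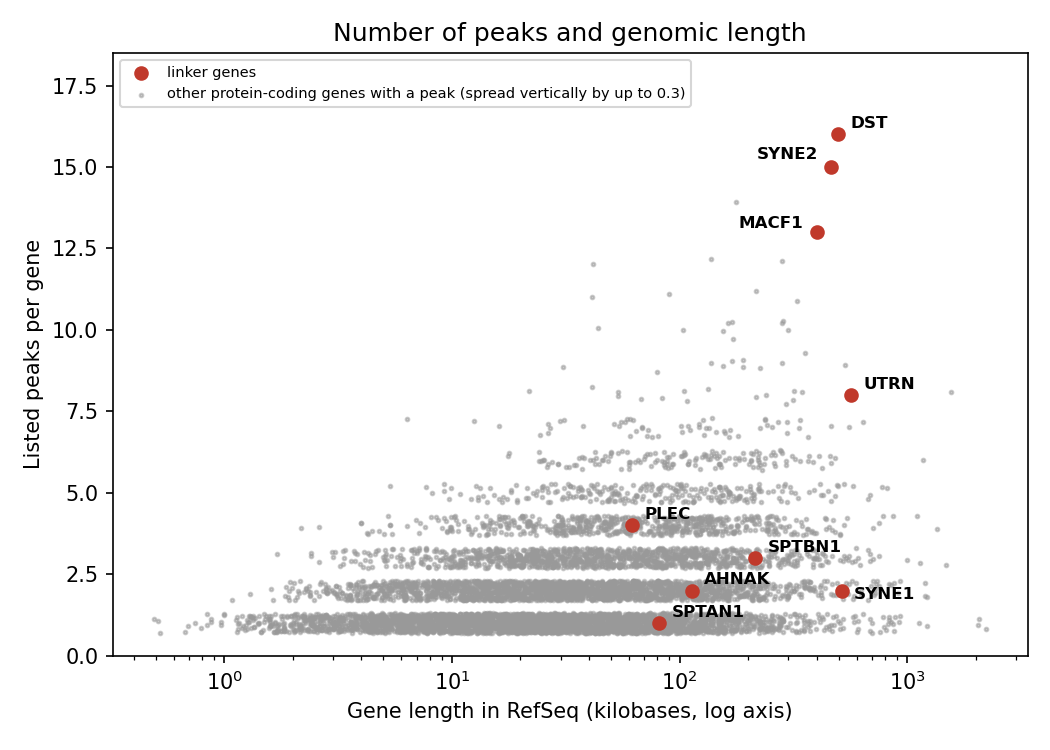
Number of listed peaks against RefSeq gene length in kilobases (log axis) for the 9 linker genes (red) and other protein-coding genes with a peak (grey). DST, SYNE2 and MACF1 had 16, 15 and 13 peaks, while SYNE1, of similar length, had 2.

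Apart from linker genes, 4 genes had 12 or more peaks. These were MDN1, a ribosome assembly factor gene, with 14, and KMT2D, VPS13D and RNF213 with 12 each. MDN1 and VPS13D had median fold enrichments of 2.51 and 2.72 over their peaks, near those of UTRN (2.51), SYNE2 (3.07) and DST (3.20), whereas KMT2D and RNF213 had 6.27 and 9.39. The median over genes of the best fold enrichment was 6.90 for the linker genes and 7.53 for all 9268 genes with a peak. In the peak with the smallest p, the medians were 2.98 for the linker genes and 6.27 for all genes with a peak. Over the 64 linker gene peaks, Spearman's rho between fold enrichment and −log10 of the p was 0.04, against 0.26 over the 18466 peaks of the list, as a description of peaks that share both libraries.

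Related genes were taken as 7 lists of 64 genes in all, of which 38 (59.4%) had a peak, against 40.0% of protein-coding genes. By list the share ran from 33.3% to 100%, and 18 of the 38 were other large linkers of actin and microtubules. The lists were chosen with earlier results of these data known, so nothing is read from the pooled share. All 3 genes of the plakin list, EPPK1, PPL and EVPL, had a peak, and the best region of each was shared with no other name. DSP, for the plakin desmoplakin of desmosomes, was counted among the squamous markers and had 1 peak of 4.80. EPPK1, for epiplakin, had 8 peaks with a best fold enrichment of 11.3, and PPL, for periplakin of the cornified envelope, had 1 of 10.0. Partners at the nuclear envelope had a peak in 5 of 10 cases. LMNB2, for a B-type lamin, reached 11.3 and LEMD3, for an inner nuclear membrane protein, 8.78, whereas SUN1, SUN2 and EMD, for proteins of the inner membrane, had no listed peak.

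Of 11 other spectrin, ankyrin and adducin genes, 4 (36.4%) had a peak, against 40.0% of protein-coding genes. ANK3, for an ankyrin that attaches spectrin to membrane proteins, and SPTB, for the erythroid beta spectrin, both reached 7.53, SPTB with an adjusted p of 0.254. The dystrophin family and its partners had a peak in 3 of 9 cases (33.3%). DAG1, for dystroglycan, which binds utrophin, and DMD, for dystrophin, both reached 10.0, and the single DMD peak had an adjusted p of 0.078. Among relatives and partners of AHNAK, AHNAK2 had 11 peaks with a best fold enrichment of 18.8 and PRX, for periaxin, 2 with a best of 11.3, while S100A10 and ANXA2, for the annexin complex that binds AHNAK, had no listed peak.

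Hemidesmosome partners of plakins had a peak in 3 of 4 cases (75.0%), all with low fold enrichments. ITGB4, for the integrin chain that binds plectin, had 5 peaks with a median of 1.40 and a best value of 4.18, for which the adjusted p was 0.056. COL17A1, for the transmembrane collagen of the hemidesmosome, had 3 with a median of 1.43 and a best of 3.23. Those medians are close to the 1.47 of DST peaks 1 to 7. The likeness was noticed after the values were seen and was not tested. ITGA6, for another integrin chain, had 1 peak of 1.86 in a region shared with another name. Low values were not particular to these genes, as 16.2% of all peaks had a fold enrichment of 2.20 or less. Other large linkers of actin and microtubules had a peak in 18 of 23 cases (78.3%), against 40.0% of protein-coding genes. An adjusted p under 0.05 was reached in 17 of the 18, as in 6792 of the 7994 protein-coding genes with a peak. MAP1A, for a microtubule-associated protein, and TLN1, for talin, which joins integrins to actin, led by best fold enrichment with 18.8 each. Their adjusted p for that peak was 0.00024 in both, the same pair of values as for AHNAK2. Other genes of that list had smaller adjusted p-values.

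**Figure D5:**
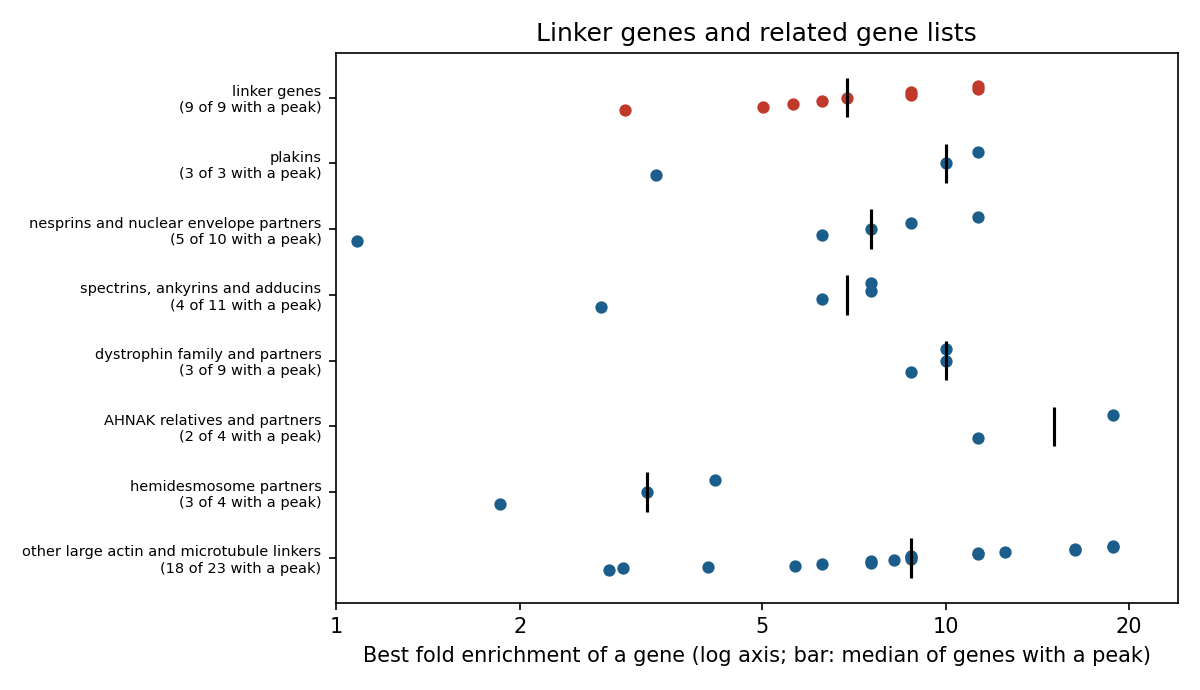
Best fold enrichment (log axis) of each gene with a peak in the linker genes (red, top) and in 7 related lists (blue), with bars at the medians and the number of genes with a peak beside each name. The linker genes range from 2.98 to 11.3 with a median of 6.90, and the hemidesmosome partners lie lowest by median at 3.23.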

How the data were processed

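The data were 1 list of peaks that the authors deposited for 1 YTHDF3 RIP library against 1 input library, grouped by their titles. Its values, per the file headers, are a fold enrichment (a linear ratio of RIP over input), a p-value and an adjusted p-value for every region, on the hg38 build, as named in the submitters' processing notes. How reads were aligned and peaks called is not given in the sources used here, nor are thresholds. Random hexamers primed the libraries and molecular identifiers were added, per the labels' protocols. No counts were used, so depth is unknown and a fold enrichment has no error.

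Starts were read as counted from 0, since 744 starts lay 1 below the RefSeq gene start and 65 equalled it, and are printed counted from 1. Regions include introns. Names were matched to RefSeq (GRCh38.p14) by symbol within 100000 bases, as all 64 linker gene peaks were, or by older symbol. Strand and annotated starts came from RefSeq for 8 of the 9 genes, and for PLEC the strand is that of the file. Python 3.11.15, pandas 2.3.3 and scipy 1.17.1 were used, and the matching and overlap functions were tested on simulated data.

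The genes and related lists were chosen with earlier results of these data known. Named are all 9 genes, the leading 2 of each related list by best fold enrichment, and genes with at least 12 peaks. SUN1, SUN2, EMD, S100A10, ANXA2, EVPL, ITGA6, DSP and SYT1 were named in addition after their values were seen. No test was made. Alternatives were stricter peaks, unshared regions, other values per gene and other spans for short peaks.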

Additional observations from a re-analysis of the deposited data

How the results depend on the processing

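All 9 linker genes kept a peak without regions shared with another gene and with strand and position of the reference gene, and 8 did with an adjusted p under 0.05 or with peaks of 5.02 or more, the median of the list. The strand of PLEC came from the authors' list itself, so the check on strand could only fail for the other 8 genes. With the 10% of peaks with the smallest p, 4 genes (DST, PLEC, SPTBN1 and AHNAK) and 6 peaks were left, and peaks of 5.02 or more numbered 18 of 64. The median fold enrichment over the peaks, 3.26, became 3.14, 7.215 and 5.32 with an adjusted p under 0.05, with peaks of 5.02 or more (which removes low values by construction) and with the 10% of smallest p. In the same order, the median best fold enrichment of 6.90 became 6.585, 7.84 and 5.32. It became 2.98 with the peak of smallest p and 3.51 with the median over a gene's peaks. The share of short peaks near the 3′ end, 8.33%, was 0% (0 of 8, exact 95% interval up to 36.9) for spans of at most 500 bases and 6.25% for at most 2000. Peaks per length of protein and motifs inside peaks were planned and not run, since protein sequences and the sequence inside peaks were not used here. No paired analysis was possible because there was 1 library of each kind and no test.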
